A study of Homo sapiens with 6 samples.

Results

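Aminoacyl-tRNA synthetases are the enzymes that join each amino acid to its transfer RNA, the step that supplies ribosomes with charged tRNA. Their genes were taken from the array by symbol: the synthetases themselves, cytosolic or mitochondrial, and the scaffold proteins AIMP1, AIMP2 and EEF1E1 that hold several of the cytosolic enzymes together. Of 41 such genes, 34 had at least 1 probe set named for that gene alone, with 72 probe sets in all, out of 19775 genes tested. They were 16 cytosolic enzymes, 15 mitochondrial enzymes, GARS1 and KARS1, whose single genes supply both compartments, and the scaffold AIMP1. The other 7 genes were not analysed here, among them the 3 genes MARS1, QARS1 and TARS2, whose probe sets also carried a microRNA name.

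The cells were CaSki, an established line from a human cervical squamous cell carcinoma. The treated group received recombinant TGF-β1, a cytokine that restrains epithelial growth and drives epithelial-mesenchymal transition, at 2 ng/mL, and the untreated group the same RPMI1640 medium with serum but no added cytokine. Each group had 3 Affymetrix arrays, numbered 1 to 3 in the labels. The labels state neither how long the cells were treated nor whether the 3 arrays of a group came from separate cultures. The p-values therefore measure only how these arrays vary, which may be technical. Levels are given on the log2 scale for a probe set, errors are SD over 3 arrays unless called SE, and each gene is read from the brightest of its probe sets, by mean over all 6 arrays. Differences are treated minus untreated.

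Mammalian cells keep separate synthetases for cytosolic and for mitochondrial translation, and both sets are encoded in the nucleus. In the cytosol, several enzymes sit with the AIMP proteins in a multisynthetase complex while the others are free. By the fold of the catalytic domain, synthetases fall into class I and class II. Genes of many cytosolic synthetases belong to the amino acid response, in which uncharged tRNA activates the kinase GCN2 and the transcription factor ATF4 binds C/EBP-ATF elements in promoters, and some are targets of MYC, which binds E-boxes.

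Few of these genes passed the test. With a limma fit over all 19775 genes, 1 of the 34 fell with TGF-β1, 0 rose and 33 did not pass at an adjusted p below 0.05, while 8.50% of all genes passed in either direction (4.47% lower and 4.03% higher). All 34 had a mean above the array median, and among all genes above it 12.0% passed. Of the 72 single probe sets 0 passed in limma, with 14 at an unadjusted p below 0.05, while 4.67% of all single-symbol probe sets passed. Of 18 members with several probe sets above the array median, 8 had differences of both signs among these probe sets. At an unadjusted p below 0.05 there were 8 members, each lower with treatment, against 23.2% of all genes in either direction and 12.6% lower. Values of treated and untreated arrays did not overlap for 10 members, again each lower with treatment, where 29.2% of all genes and 37.3% of those above the array median did not overlap, with 16.3% of all genes lower and 12.9% higher. In such bulk RNA, fewer cells of a kind and less RNA per cell cannot be told apart. The differences ran from -0.34 to 0.21, and 24 of 34 were below 0, against 50.6% of all genes. Genes above the array median leaned slightly lower, with a median difference of -0.022 against -0.003 over all genes. Their share below 0 was not counted. For 33 of the 34 genes the 95% interval lay inside a change of 1.5-fold in either direction, and the interval of WARS2 reached -0.65.

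**Figure D1:**
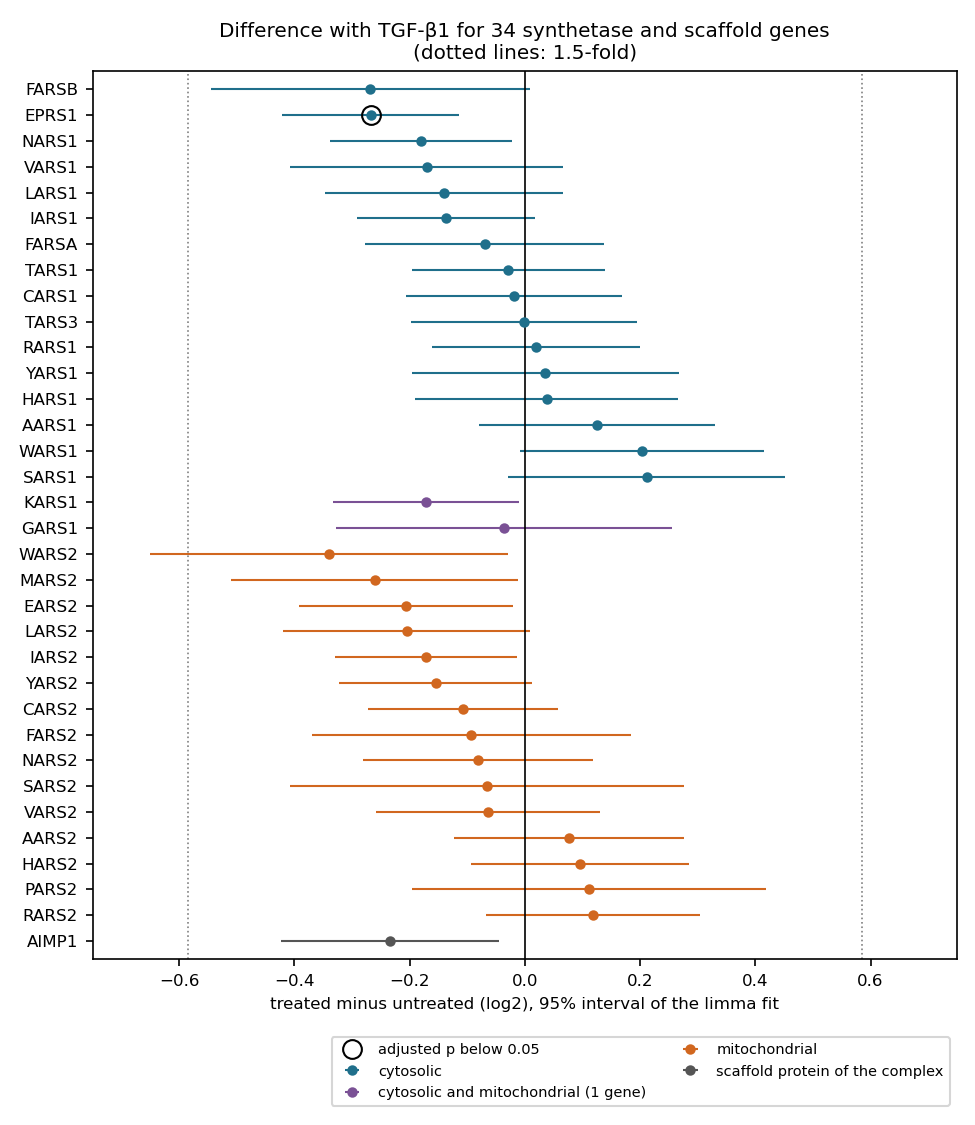
Difference between TGF-β1-treated and untreated cells (log2, x axis) with its 95% interval for each of the 34 genes, coloured by compartment; the ringed point is the gene with an adjusted p below 0.05 and the dotted lines mark 1.5-fold. EPRS1 is the ringed gene at -0.27, and the interval of WARS2 alone crosses a dotted line.

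Promoter windows from RefSeq (GRCh38.p14), from 250 bases before to 50 bases after each listed start, were found for 28 of the 34 genes. The C/EBP-ATF element, searched as TGATGNAA on both strands, was present in the windows of 7 of these 28 genes (25%), and in those of 3.61% of 15384 tested genes with a window. The 7 were AARS1, CARS1, GARS1, IARS1, NARS1, TARS1 and YARS2, so 6 were among 14 cytosolic or dual genes and 1 among 13 mitochondrial genes. In 5 of them, the match lay within 33 bases of a listed start, and in AARS1 and YARS2 its nearer end was further upstream, with first bases at 187 and 197 bases. The windows of 4 examples are shown 5′ to 3′ along the gene, with the match in capitals, because they carry the letters tied to ATF4 close to a start. In all 4 the element reads on the opposite strand.
GARS1 (chr7:30594788-30594907, plus strand): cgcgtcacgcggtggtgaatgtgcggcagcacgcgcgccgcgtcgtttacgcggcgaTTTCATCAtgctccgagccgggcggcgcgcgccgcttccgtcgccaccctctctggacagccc
IARS1 (chr9:92293668-92293787, minus strand): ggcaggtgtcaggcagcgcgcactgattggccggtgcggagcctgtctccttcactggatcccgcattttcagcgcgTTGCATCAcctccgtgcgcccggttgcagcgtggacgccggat
CARS1 (chr11:3057394-3057513, minus strand): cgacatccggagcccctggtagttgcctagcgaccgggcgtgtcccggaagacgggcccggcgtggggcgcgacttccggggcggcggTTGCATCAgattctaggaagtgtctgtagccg
TARS1 (chr5:33440875-33440994, plus strand): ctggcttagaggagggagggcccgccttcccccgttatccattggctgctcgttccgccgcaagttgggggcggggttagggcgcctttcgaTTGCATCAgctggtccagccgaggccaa
These 7 genes differed by between -0.18 and 0.12 with TGF-β1, with a median of -0.04, and the 21 genes whose windows had no match had a median of -0.09. By limma 0 of the 7 passed, with 1, NARS1, at an unadjusted p below 0.05.

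The E-box, searched as CACGTG, which reads alike on both strands, was present for 4 of the 28 genes (14.3%) and for 10.9% of tested genes. IARS1 was the 1 gene with both motifs, which lay apart. The 4 were the mitochondrial CARS2, EARS2 and MARS2 and the cytosolic IARS1, and 2 of them are shown with the match in capitals.
MARS2 (chr2:197705279-197705398, plus strand): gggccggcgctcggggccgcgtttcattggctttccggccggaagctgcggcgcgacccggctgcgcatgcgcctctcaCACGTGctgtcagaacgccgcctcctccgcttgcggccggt
EARS2 (chr16:23557321-23557440, minus strand): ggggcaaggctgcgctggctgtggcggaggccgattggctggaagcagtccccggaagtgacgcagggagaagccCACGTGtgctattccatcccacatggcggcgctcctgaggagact
Their differences were -0.26 for MARS2, -0.21 for EARS2, -0.14 for IARS1 and -0.11 for CARS2, without passing, with a median of -0.17 against -0.07 for the 24 genes without a match. Other probe sets of EARS2 and CARS2 above the array median lay above 0. A match describes letters in a window and shows no binding.

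EPRS1 was the single gene that fell. It encodes a fused enzyme that charges both glutamate and proline tRNAs and is a member of the multisynthetase complex. It read 9.88, 9.91 and 9.96 on the untreated arrays and 9.66, 9.66 and 9.62 on the treated arrays, so the groups did not overlap. The difference was -0.27 ± 0.07 (SE), 1.20-fold lower, with a limma adjusted p of 0.047 and a 95% interval from -0.42 to -0.11. The call was at the edge of the threshold: it was lost without any single array (adjusted p = 0.073 without treated array 1, 0.114 without treated array 2, 0.125 without treated array 3, 0.100 without untreated array 1, 0.131 without untreated array 2 and 0.153 without untreated array 3), while the difference stayed between -0.29 and -0.25. The other 2 EPRS1 probe sets differed by -0.16 and -0.13 and did not pass. The upstream sequence of this gene is shown because it is the only member that was called, and neither motif was found in its window.
EPRS1 upstream of the start (chr1:220046506-220046755, minus strand): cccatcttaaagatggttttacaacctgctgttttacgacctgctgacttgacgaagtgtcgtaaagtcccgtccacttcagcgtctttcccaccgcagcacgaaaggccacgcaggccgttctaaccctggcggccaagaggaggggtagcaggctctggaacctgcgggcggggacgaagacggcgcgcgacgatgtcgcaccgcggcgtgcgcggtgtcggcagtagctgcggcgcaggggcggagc

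The other measured parts of the multisynthetase complex were mostly lower by smaller amounts. Of its 6 measured members, 5 had differences below 0, 1 was called and 4 did not overlap between groups, and the median difference was -0.16. Over all genes 8.50% were called, 29.2% did not overlap, 16.3% did not overlap and lay lower, and the median was -0.003. AIMP1, the scaffold that binds the arginyl and glutaminyl enzymes, read 8.46, 8.61 and 8.54 untreated and 8.25, 8.24 and 8.42 treated. Its difference was -0.23 ± 0.08 (SE, adjusted p = 0.132), and its other probe sets gave -0.30 and -0.37, so all 3 lay on the same side without passing. KARS1, the lysyl enzyme of cytosol and mitochondria, read 12.26, 12.30 and 12.36 untreated and 12.10, 12.19 and 12.12 treated, a difference of -0.17 (adjusted p = 0.191) with no overlap. IARS1, the isoleucyl enzyme, read 11.34, 11.34 and 11.36 untreated and 11.18, 11.18 and 11.27 treated, a difference of -0.14 (adjusted p = 0.274), also with no overlap. LARS1, the leucyl enzyme and a leucine sensor for mTORC1, differed by -0.14 with groups that overlapped, and its 4 probe sets ran from -0.30 to 0.07. RARS1, the arginyl enzyme, differed by 0.02, with a 95% interval from -0.16 to 0.20.

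Among 13 free enzymes of the cytosol, GARS1 included, 0 were called by limma, against 8.50% of all genes and 12.0% of those above the array median. Their median difference was -0.02. At an unadjusted p below 0.05 there was 1, against 23.2% of all genes. That 1 was NARS1, the asparaginyl enzyme, which read 10.36, 10.32 and 10.43 untreated and 10.18, 10.22 and 10.18 treated, a difference of -0.18 (adjusted p = 0.161) with no overlap. FARSB, the beta subunit of the phenylalanyl enzyme, read 8.68, 8.76 and 8.89 untreated and 8.25, 8.63 and 8.65 treated, so treated array 1 stood well below the rest of its group. Its difference was -0.27 (adjusted p = 0.232), and the alpha subunit FARSA differed by -0.07. The largest positive differences were those of SARS1, the seryl enzyme, at 0.21 (adjusted p = 0.278), and WARS1, the tryptophanyl enzyme known as an interferon-gamma target, at 0.20 (adjusted p = 0.236). WARS1 read 9.15, 9.24 and 9.34 untreated and 9.30, 9.49 and 9.56 treated, so treated array 1 lay inside the untreated range. SARS1 read 9.73, 9.82 and 9.98 untreated and 9.88, 10.09 and 10.20 treated, with the same array inside the untreated range. The second probe set of WARS1 differed by 0.08 and that of SARS1 by -0.05. TARS1, CARS1, TARS3, YARS1 and HARS1 differed by between -0.03 and 0.04, with 95% intervals that lay between -0.21 and 0.27, and TARS3 was read by a probe set whose suffix marks shared sequence. VARS1 differed by -0.17, AARS1 by 0.12 and GARS1 by -0.04, each with overlapping groups.

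Of the 15 mitochondrial enzymes, 0 were called by limma and 4 had an unadjusted p below 0.05, all lower with treatment. Their median difference was -0.09, 11 of 15 differences were below 0, and 4 did not overlap between groups. The 4 without overlap were also all lower. Over all genes 23.2% had such a p and 29.2% did not overlap in either direction, with 12.6% and 16.3% lower. Both counts were thus near the shares in either direction over all genes. All 15 had a mean above the array median, where 37.3% of genes did not overlap in either direction. The share that lay lower among those genes was not counted. WARS2, the mitochondrial tryptophanyl enzyme, had the largest difference of all 34 genes, -0.34 ± 0.13 (SE, adjusted p = 0.179). It read 6.25, 6.33 and 6.58 untreated and 5.85, 5.99 and 6.31 treated, so treated array 3 reached into the untreated range. A second WARS2 probe set differed by -0.01, and one too dim to reach the array median (mean 2.13) by 0.23, so the size for this gene rests on 1 probe set. MARS2, the mitochondrial methionyl enzyme, read 4.42, 4.19 and 4.29 untreated and 3.85, 4.22 and 4.05 treated, with a difference of -0.26 at a level next to the array medians of 4.15 to 4.18. EARS2, the mitochondrial glutamyl enzyme, read 5.71, 5.79 and 5.76 untreated and 5.51, 5.68 and 5.46 treated, a difference of -0.21 (adjusted p = 0.174) with no overlap. Other EARS2 probe sets above the array median differed by 0.04 and 0.11. The mean of all EARS2 probe sets differed by -0.03.

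IARS2, the mitochondrial isoleucyl enzyme, read 9.74, 9.71 and 9.82 untreated and 9.60, 9.56 and 9.60 treated, a difference of -0.17 (adjusted p = 0.182) with no overlap and the smallest spread of treated arrays among mitochondrial enzymes (SD 0.0241). YARS2, the tyrosyl enzyme, also lay lower on every treated array than on every untreated array, by -0.15 (adjusted p = 0.251). So did CARS2, the cysteinyl enzyme, on its brightest probe set, by -0.11 (adjusted p = 0.426). Another CARS2 probe set above the array median lay higher on every treated array, by 0.26. The mean of all CARS2 probe sets differed by 0.02. LARS2, the leucyl enzyme, differed by -0.21 with overlapping groups. FARS2, NARS2, SARS2 and VARS2 differed by between -0.09 and -0.06. AARS2, HARS2, PARS2 and RARS2, the enzymes for alanine, histidine, proline and arginine, had differences of 0.08, 0.10, 0.11 and 0.12, without passing. By catalytic fold, 8 of 9 mitochondrial class I enzymes were below 0 with a median of -0.17, and 3 of 6 class II enzymes with a median of 0.01. Among cytosolic and dual enzymes the same counts were 4 of 7 class I and 7 of 10 class II, with medians of -0.02 and -0.03, and EPRS1, which has a domain of each class, stands outside both.

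Cytosolic and dual enzymes had a median difference of -0.03 over 18 genes and mitochondrial enzymes one of -0.09 over 15 genes. The genes are not replicates of a condition, so these medians have no test between them. Leaving out single arrays moved the cytosolic and dual median between -0.084 (without treated array 3) and -0.005 (without untreated array 3), and the mitochondrial one between -0.128 (without untreated array 1) and -0.079 (without untreated array 3). The cytosolic and dual median was also -0.076 without untreated array 1, -0.074 without treated array 2 and -0.068 with a 3′ to 5′ signal of control probe sets as a covariate. The mitochondrial minus the cytosolic and dual median was -0.06 with all arrays and ran from -0.10 without treated array 1 to -0.03 without treated array 2. With the mean of all probe sets of a gene the medians were -0.01 and -0.04. Pairs of a cytosolic and a mitochondrial enzyme were formed for 13 amino acids, giving 14 pairs because phenylalanyl synthetase has 2 cytosolic subunits. EPRS1 was paired for glutamate alone. For proline, its other amino acid, PARS2 was measured at 0.11 against -0.27 for EPRS1, on opposite sides of 0. That combination is not in the counts that follow. In 8 pairs both enzymes were below 0, in 3 both were above 0 and in 3 they lay on opposite sides, and the mitochondrial enzyme had the lower difference in 8 of 14. The 95% intervals overlapped in 13 pairs. The exception was tryptophan, with WARS1 at 0.20 (-0.01 to 0.42) and WARS2 at -0.34 (-0.65 to -0.03), where the second WARS2 probe set at -0.01 did not show it. For isoleucine, leucine and glutamate the pairs lay close together, at -0.14 and -0.17, at -0.14 and -0.21, and at -0.27 and -0.21. Other probe sets of LARS1 and EARS2 did not all share the sign used here.

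**Figure D2:**
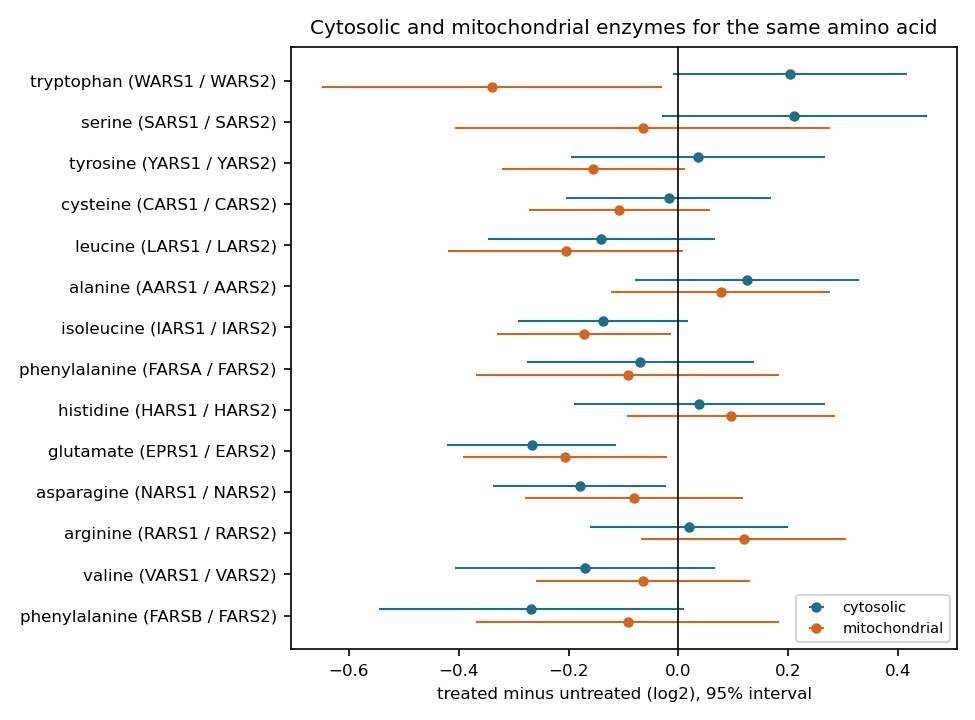
Differences with TGF-β1 (log2, x axis) with 95% intervals for cytosolic (blue) and mitochondrial (orange) enzymes of the same amino acid, ordered by the mitochondrial minus the cytosolic difference. The intervals of WARS1 and WARS2 at the top do not overlap, and those of the other 13 pairs do. EPRS1 and PARS2, for proline, are not drawn as a pair.

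The arrays within a group were not alike for these genes. Set against the mean of the untreated arrays, the median member lay at -0.05, -0.03 and 0.06 on untreated arrays 1 to 3 and at -0.16, -0.08 and -0.05 on treated arrays 1 to 3. The same medians over all genes lay between -0.01 and 0.01. Treated array 1 was the lowest of its group for 20 of 34 members, against 39.8% of all genes, and untreated array 3 the highest of its group for 22 of 34, against 37.7% of all genes. RNA quality can be read from how far 3′ control probe sets outshine 5′ ones (log2, mean of GAPDH and ACTB). Both arrays numbered 1 stood highest in it, at 1.19 untreated and 1.15 treated, against 0.690 to 0.863 on the other 4. With this signal as a covariate, 2 members were called, EPRS1 and FARSB, at -0.27 and -0.32. The median over the 34 members was -0.08 with all arrays. It was -0.02 without untreated array 3 and -0.04 without treated array 1, but -0.12 without treated array 3, -0.10 without untreated array 1, -0.10 without untreated array 2 and -0.09 without treated array 2. The spread within groups (median SD 0.102) was close to that of all genes (0.116).

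**Figure D3:**
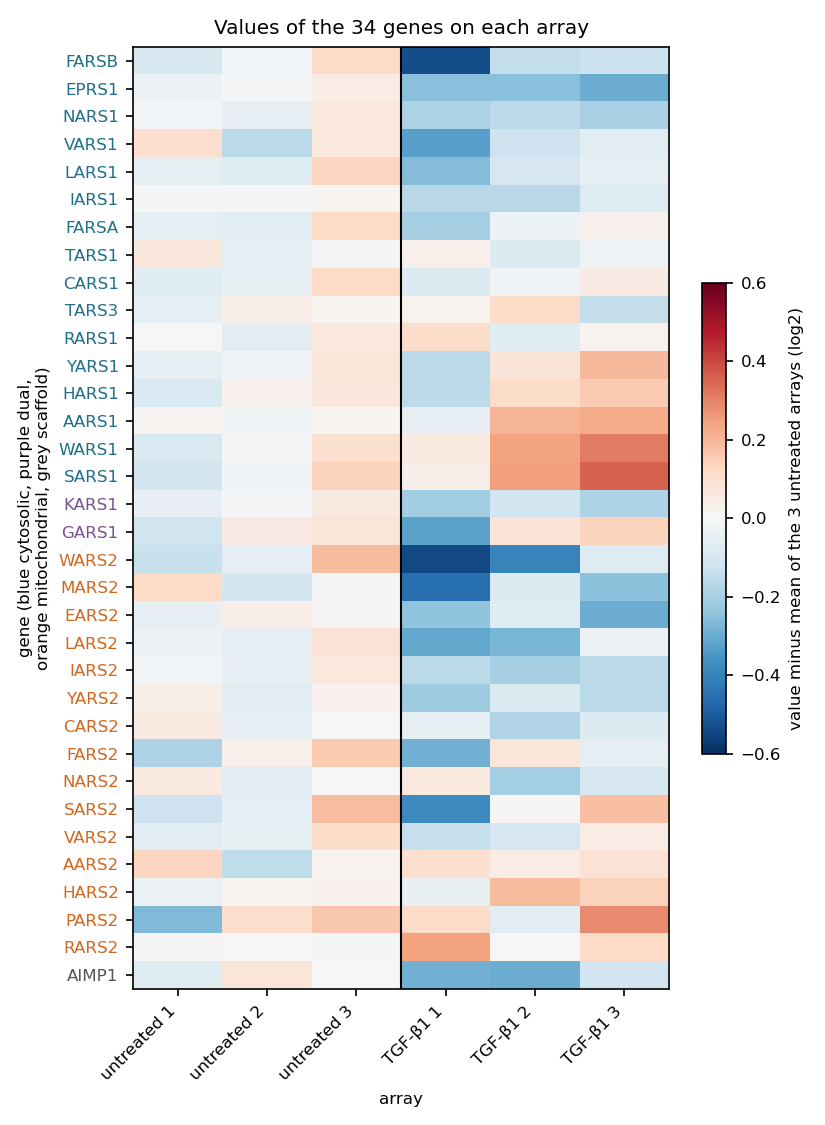
Value of each of the 34 genes on each array minus the mean of its 3 untreated arrays (log2, colour scale from -0.6 to 0.6), with cytosolic genes at the top, then dual genes, mitochondrial genes and AIMP1. EPRS1, NARS1, KARS1 and IARS2 are blue on all 3 treated arrays, while FARSB, WARS2 and SARS2 are bluest on treated array 1.

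The measured epithelial markers stood above those of other cell types. Of 8 squamous and epithelial markers 6 were measured, all above the array median, with means from 7.63 to 11.99. KRT6A and TP63 were not among those measured. Of 4 fibroblast, 3 endothelial and 3 measured leukocyte markers, 1, 2 and 1 lay above the array median and none had a mean above 5.67. Summed log2 levels of the epithelial markers ran from 61.8 to 62.4 untreated and from 62.3 to 63.8 treated, those of the fibroblast markers from 13.6 to 14.2 and from 14.3 to 14.8, those of the endothelial markers at 13.5 and from 13.0 to 13.3, and those of the leukocyte markers from 11.0 to 11.2 and from 10.7 to 11.3. Within these sums single markers went opposite ways: KRT14 and KRT8 rose by 0.77 and 0.60 (adjusted p = 0.0027 and 0.0034), while EPCAM fell by 0.70 and the endothelial CDH5, below the array median, by 0.41 (adjusted p = 9.5e-04 and 0.0299). Their part in the synthetase values was not tested. Across all probe sets, r was 0.994 to 0.996 between arrays of one group and 0.992 to 0.993 between groups.

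Other genes of tRNA charging and translation were read from 8 lists of 136 genes, of which 126 were measured and 13 were called. For comparison, 8.50% of all genes and 12.0% of those above the array median were called. Of 19 measured partners of charging, editing and export, XPOT and DTD2 fell, 0 rose and 17 did not pass, with a median of -0.06. XPOT, the exportin that carries tRNA out of the nucleus, fell 1.34-fold, from 10.04 ± 0.111 to 9.62 ± 0.119 (adjusted p = 0.0307). DTD2 fell 1.28-fold (adjusted p = 0.0339). The XPOT call was lost without treated array 2 or 3 or untreated array 1 or 3 (adjusted p up to 0.112), and the DTD2 call without any array but treated array 1 (adjusted p up to 0.107).

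Of 15 measured factors of mitochondrial translation, 4 fell, 0 rose and 11 did not pass, with a median of -0.22. The share called was 8.50% over all genes, with 4.47% lower. All 15 had a mean above the array median, where 12.0% of genes were called in either direction. LRPPRC, which stabilises mitochondrial messenger RNA, fell 1.40-fold from 10.02 ± 0.0449 to 9.54 ± 0.041 (adjusted p = 0.0049). MTIF2, the mitochondrial initiation factor, fell 1.33-fold from 9.07 ± 0.0158 to 8.66 ± 0.0649 (adjusted p = 0.0114). MTRFR, a rescue factor for stalled mitochondrial ribosomes, and PTCD3, a protein of the small mitochondrial ribosomal subunit, fell 1.27-fold and 1.25-fold (adjusted p = 0.0329 and 0.0274). The LRPPRC call held without each single array but was lost with the mean of all its probe sets (-0.16, adjusted p = 0.178), with probe sets lacking a shared-sequence suffix (-0.17, adjusted p = 0.286) and without both arrays numbered 1 (adjusted p = 0.0515). In the same removals of single arrays, MTIF2 no longer passed when untreated array 3 was left out (adjusted p = 0.0513), and the MTRFR and PTCD3 calls were lost without any single array (adjusted p up to 0.111 and 0.0907). The treated and untreated arrays did not overlap for 8 of the 15, all lower, against 16.3% of all genes that lay lower. In either direction 37.3% of genes above the array median did not overlap. Whether this list and the mitochondrial synthetases differ from each other was not tested.

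By the main settings, cytosolic translation factors did not pass. Of 8 elongation factors and 22 initiation factors 0 were called by limma, against 8.50% of all genes and 12.0% of those above the array median. At an unadjusted p below 0.05 there were 2 and 5, against 23.2% of all genes, and the medians were -0.07 and -0.11. All 8 elongation factors and 20 of the 22 initiation factors had a mean above the array median. Of the initiation factors 18 of 22 were below 0 and 10 lay lower without overlap, as did 3 of the 8 elongation factors, against 16.3% of all genes. In either direction 29.2% of all genes and 37.3% of those above the array median did not overlap. Initiation factors had 2 calls among genes above the array median and 5 with a trended robust variance.

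Calls in the amino acid response were near the share of genes above the array median. ATF4, its transcription factor, stood at 10.87 ± 0.0482 untreated and 10.88 ± 0.0495 treated, 0.01 apart, and the 95% interval of that difference ran from -0.15 to 0.17. Of 26 measured genes, SESN2 rose, PSPH and ALDH18A1 fell and 23 did not pass, with a median of -0.06, where 8.50% of all genes and 12.0% of those above the array median passed. At an unadjusted limma p below 0.05 there were 8 lower and 3 higher genes, against 23.2% of all genes in either direction. Groups did not overlap for 9 lower and 4 higher genes, against 29.2% of all genes and 37.3% of those above the array median. SESN2, a leucine sensor that restrains mTORC1, rose 1.48-fold from 6.61 ± 0.0348 to 7.18 ± 0.0385 (adjusted p = 0.002), and the call held without each single array. PSPH, the last enzyme of serine synthesis, fell 1.44-fold (adjusted p = 0.0277), lost without any array but treated array 2 (adjusted p up to 0.086). ALDH18A1, an enzyme of proline synthesis, fell 1.24-fold (adjusted p = 0.0456), lost without any single array (adjusted p up to 0.152). Among 15 sensors of uncharged tRNA and of leucine, SESN2 was again the only call, and the median was 0.003.

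WARS1 was set beside other interferon-gamma genes. Of 16 measured, PSMB8 and PSMB9, subunits of the immunoproteasome, fell 1.31-fold and 1.33-fold (adjusted p = 0.015 and 0.029), 0 rose and 14 did not pass, with a median of -0.05. The share called was 8.50% over all genes and 12.0% over those above the array median. In this list 13 differences were below 0 and 3 above. GBP1 lay higher by 0.37 without overlap but did not pass (limma adjusted p = 0.0946). PSMB8 was lost without treated array 2, untreated array 2 or untreated array 3 (adjusted p up to 0.0669), and PSMB9 without any array but treated array 3 (adjusted p up to 0.102). Of MYC and 6 measured partners, MYC fell by 0.97 on the log2 scale, from 9.86 ± 0.0677 to 8.89 ± 0.0572, and MXI1, a MAX-binding antagonist of MYC, by 0.56 (adjusted p = 2.2e-04 and 0.009), and the other 5 did not pass. Both calls held without each single array. Over all 17 alternatives SESN2, MYC and MXI1 stayed called in 17, MTIF2 in 15, LRPPRC in 14, PSMB8 in 13, XPOT and PSMB9 in 11, PSPH in 10, DTD2 in 9, MTRFR in 8, and PTCD3 and ALDH18A1 in 7. XPOT differed by -0.28 (adjusted p = 0.105) with the mean of its probe sets, and MTRFR turned to 0.19 (adjusted p = 0.615) with probe sets lacking a shared-sequence suffix.

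**Figure D4:**
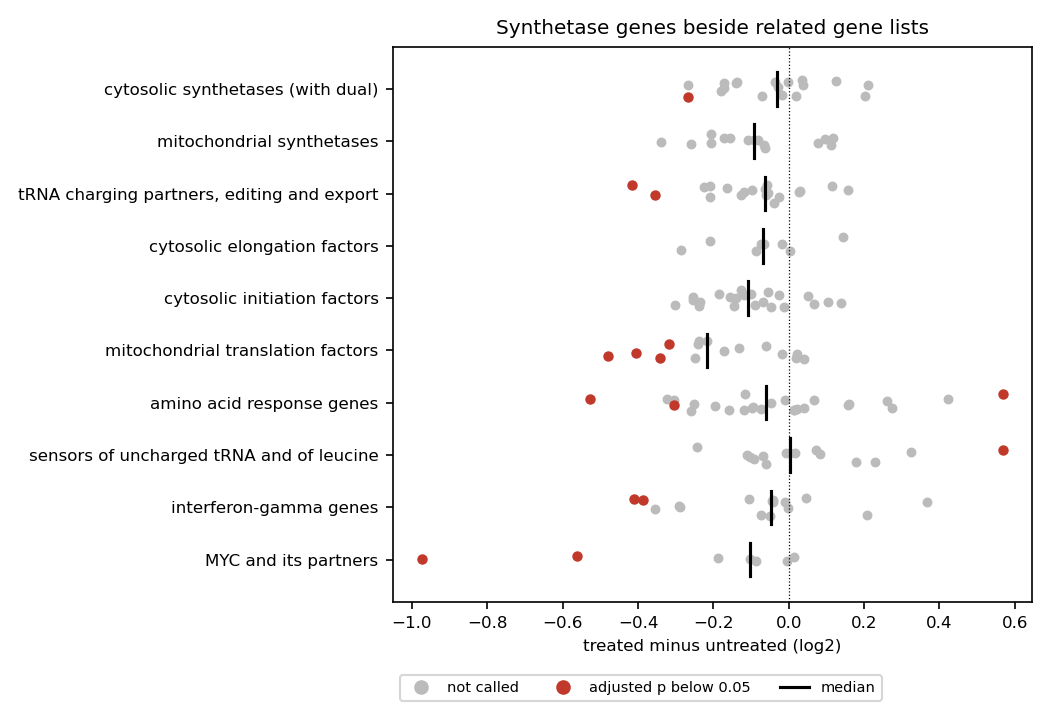
Difference with TGF-β1 (log2, x axis) for each gene of the cytosolic and mitochondrial synthetases and of 8 related lists, with called genes in red, others in grey and the median of each row as a black bar. The mitochondrial translation factors have 4 red points below 0, while the mitochondrial synthetases have none.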

How the data were processed

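Expression was measured on 6 Affymetrix arrays of 54675 probe sets, 3 per group. The authors deposited log2 values made with Affymetrix Expression Console and RMA, per the submitters' processing notes; neither versions nor settings are recorded there, and the log2 scale was read from the values, which ran from 1.57 to 14.5. RMA equalises arrays and compresses differences of dim probe sets. Scanner files were not used, so no detection call was available, and the number of arrays limits the precision.

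Probe sets were named by the platform annotation, with symbols updated through gene numbers in RefSeq (GRCh38.p14), which changed 0 symbols. 41091 probe sets carried 1 symbol, 1801 several and 11721 none, besides 62 controls. The probe set with the highest mean represented its gene. Treated arrays were tested against untreated ones in limma 3.58.1 under R 4.3.3 (lmFit and eBayes, without covariates or filters) with Benjamini-Hochberg adjustment over 19775 genes and a threshold of 0.05. Simulated data were made from this comparison, with 19775 genes, of which 100 were changed 1.5-fold and 100 changed 2-fold. The fit recovered 56% and 88% of them, and 5.26% of its calls were false. In the data 8.50% of genes were called, so recovery may differ there. Changes below 1.5-fold, the size of the members' differences, were not simulated. Whether replicate numbers pair the arrays was checked from how arrays with one number deviate from their group means. The correlations were 0.20, 0.06 and 0.09, all low and positive. No pairing was assumed in the main fit, and a replicate block was run as an alternative.

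The members, lists and alternatives were chosen with earlier results of these data known. Every member could be named, and up to 4 genes of each list with the smallest p, besides MYC and ATF4. The 10 listed genes without a single-symbol probe set were not analysed here. Alternatives were 2 normalisations, 2 filters on dim genes, 2 choices of probe set, a trended robust variance, array weights, a replicate block, a 3′ to 5′ covariate, removal of each array in turn and of both arrays numbered 1.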

Additional observations from a re-analysis of the deposited data

How the results depend on the processing

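Of the 34 genes, 22 kept the sign of their difference under all 17 alternatives and 12 did not, and 27 were called under none. The number of members called, 1 with the main settings, was 0 after repeated quantile normalisation, median centring, the mean of all probe sets, the use of probe sets without a shared-sequence suffix and removal of both arrays numbered 1, and the cytosolic and dual count was 0 under the same settings. Both counts were 0 whichever single array was left out. With the 3′ to 5′ covariate 2 members were called, both cytosolic, and with the trended robust variance 5 (AIMP1, EPRS1, IARS2, KARS1 and NARS1), of which 3 were cytosolic or dual and 1 mitochondrial. With a replicate block 1 member was called, the mitochondrial WARS2 (adjusted p = 0.04995), and 0 cytosolic or dual ones, since EPRS1 did not pass (adjusted p = 0.082). The labels do not say that shared numbers pair the arrays, though both arrays numbered 1 stood highest in the 3′ to 5′ signal. The block gave 1280 calls over all genes against 1680. EPRS1 had adjusted p from 0.0028 to 0.162 over the alternatives and was called under 5 of them. The mitochondrial median moved from -0.09 to -0.039 with the mean of all probe sets. The MTRFR difference turned to 0.19 (adjusted p = 0.615) with probe sets without a shared-sequence suffix; the cause was not tested. Over all genes the calls numbered 2629 with the trended robust variance, 627 without both arrays numbered 1, and 768 to 1326 without single arrays. The listed genes had 13 calls, but 21 among genes above the array median, 27 with the trended robust variance, 3 without both arrays numbered 1 and 4 to 11 without single arrays. Rises were 47.4% of the calls over all genes and 41.9% to 58.7% over the alternatives. Fits on fewer arrays have less power, and with 3 arrays a group the median SE of a member's difference was 0.087.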
